A study of Bos taurus with 6 samples.

Results

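Glucocorticoid activation and response genes were followed in bovine granulosa cells after a long (7-day) or a conventional (4-day) FSH treatment. The set held 10 genes, chosen by symbol. It included the enzymes HSD11B1 and HSD11B2, H6PD as the cofactor supply of HSD11B1, and the receptors NR3C1 and NR3C2. The others were the response genes FKBP5, TSC22D3, SGK1, ZBTB16 and PER1. Of 43794 probes on the array, 14 carried the symbol of 9 of the 10 genes, and no probe carried H6PD. Granulosa cells, the estradiol-making lining of the follicle, came from multiparous beef cows whose follicles had been ablated to start a new wave, and which all received FSH every 12 h, a progesterone device, prostaglandin and then LH. The cows of the long FSH group received FSH for 7 days and those of the conventional FSH group for 4 days, and ovaries were removed 24 h after LH in both. RNA from the largest follicles of a cow was pooled and amplified before labelling, so follicles of 1 cow could not be told apart. RNA of 3 cows per group was hybridised in 3 pairs, each on 2 two-colour arrays with the dyes swapped, and the 2 arrays of a pair were averaged and counted as 1 replicate (n = 3 pairs).

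In many tissues, HSD11B1 turns inactive cortisone into cortisol, using NADPH that H6PD supplies inside the endoplasmic reticulum, and HSD11B2 turns cortisol back into cortisone. Cortisol binds the glucocorticoid receptor, NR3C1, and also the mineralocorticoid receptor, NR3C2, which leave their chaperones, enter the nucleus and switch on genes such as FKBP5 and TSC22D3. In granulosa cells of several mammals, the LH surge is known to raise HSD11B1 as the follicle nears ovulation. Several of the response genes are also known to answer other signals, such as cyclic AMP for SGK1 and PER1.

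All ratios below are long FSH over conventional FSH on the log2 scale, so 1 is a 2-fold difference. Their direction is called likely. It rests on the design text of the series, which the study's legends share, whereas the sample labels give the opposite dyes. With the sign turned, higher and lower would exchange in every value. A detection limit was set 2 SD above the mean of the negative control spots of each array and dye. Probes past it in 3 or more of 6 readings in one or the other group were tested, which left 23480 probes, of which 12990 named 9933 genes. Between 41.8% and 51.4% of the probes exceeded this limit on an array in 1 dye. The swapped arrays correlated across tested probes with r = 0.43 in pair 1, 0.65 in pair 2 and 0.24 in pair 3, and the ratios of pair 3 correlated with those of pairs 1 and 2 with r of 0.16. Probes are not independent replicates in these correlations. Precision was limited by the small number of arrays.

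Of the 14 member probes, 9 probes of 6 genes passed the filter on dim signals: HSD11B1, NR3C1, FKBP5, TSC22D3, SGK1 and ZBTB16. The other 5 probes were dim and were not tested, and they included every probe of HSD11B2, NR3C2 and PER1. Among the tested probes, 3 passed both limits used by the study, here limma's unadjusted P of 0.05 or less and at least a 2-fold difference. They were the SGK1 probe and 2 of the 3 FKBP5 probes, all higher in the long FSH group, and 0 member probes were lower. Over all tested probes, 582 (2.48%) were higher and 342 (1.46%) lower by the same limits. By gene, as its brightest tested probe, 2 of 6 members were higher, against 3.39% of all genes. The study's methods also name a false discovery rate by Benjamini-Hochberg. No probe of the array passed at an adjusted p of 0.05 in this limma fit, while 2220 had an unadjusted P of 0.05 or less. Of the 9 tested member probes, 3 had entered through readings of the long FSH group alone, so the 9 means above 0 are no support for a shared direction. In 2 of the 9 probes, SGK1 and FKBP5 EMBV3_39524, the groups did not overlap and every long FSH cow was the higher, as for 7.87% of all tested probes.

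**Figure D1:**
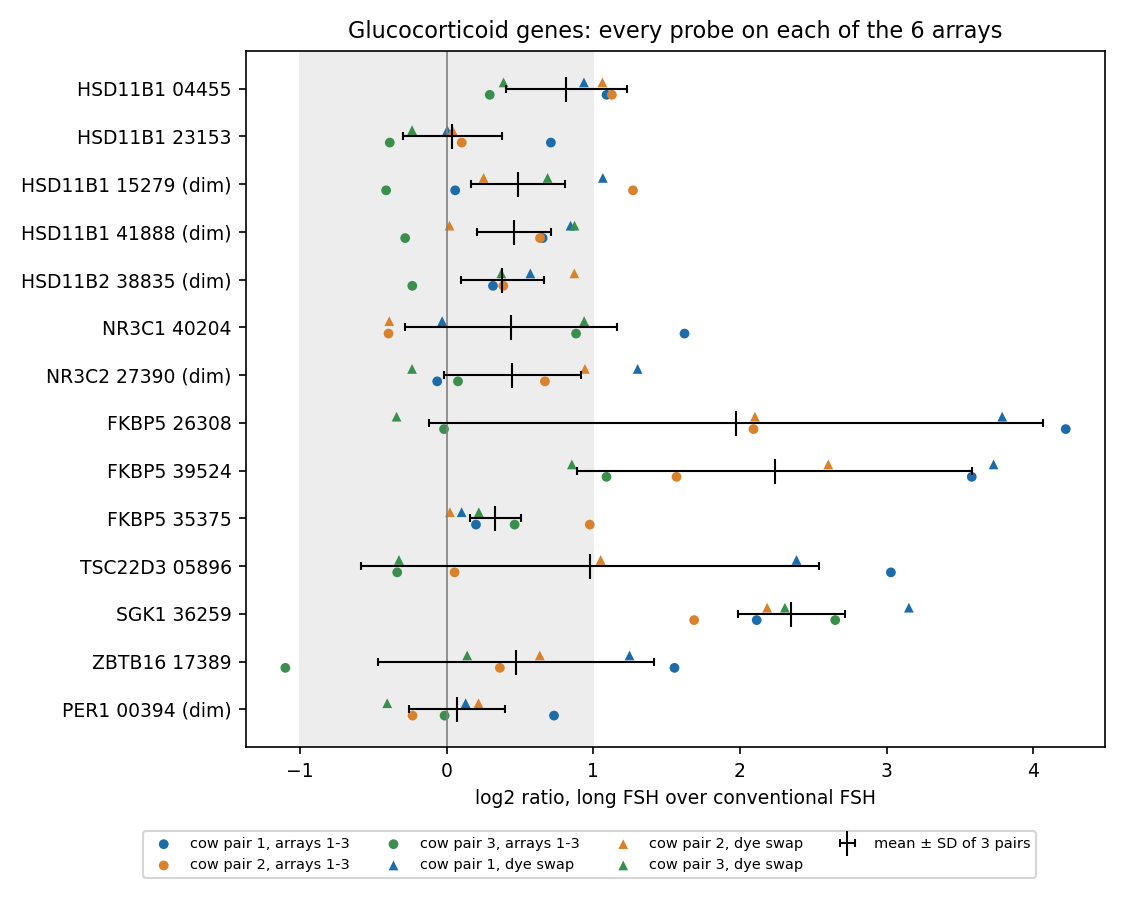
Log2 ratio of every member probe (long FSH over conventional FSH, x axis) on each of the 6 arrays, coloured by cow pair, with circles for arrays 1 to 3, triangles for their dye swaps, black bars for the mean ± SD of 3 pairs, and grey for less than 2-fold. Probe numbers follow the gene symbols, and dim probes were not tested. All 6 values of SGK1 lie between 1.69 and 3.15, whereas the values of FKBP5 EMBV3_26308, FKBP5 EMBV3_39524 and TSC22D3 separate by cow pair.

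HSD11B1, the enzyme that makes active cortisol, was read by 4 probes, which gave unlike values. At the brightest probe (EMBV3_04455), the log2 intensity was 7.90, 8.00 and 8.64 in cows 1 to 3 of the long FSH group. In cows 1 to 3 of the conventional FSH group it was 6.89, 6.91 and 8.30. Cow 3 of the conventional FSH group stood above 2 of the 3 long FSH cows, so the groups overlapped. The log2 ratio was 1.01 in pair 1, 1.09 in pair 2 and 0.34 in pair 3, above 0 on 6 of 6 arrays. Its mean was 0.82 ± 0.41 (SD, n = 3), a 1.76-fold difference that reached limma's P limit (adjusted p = 0.406) and not the fold limit. Without pair 3 it passed both, at 1.05. The P limit was missed without pair 1 (0.72), without pair 2 (0.68) and, at the same mean, with cows compared 3 against 3 or with limma's trend and robust options. The signal was above the negative control limit in 6 of 6 long FSH readings and in 2 of 6 conventional FSH readings, with raw intensities of 185 to 470 and of 99 to 442.

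The second tested HSD11B1 probe (EMBV3_23153) did not share this difference. Its log2 intensity was 7.54, 7.51 and 7.48 in the long FSH cows and 7.18, 7.44 and 7.79 in the conventional FSH cows. The conventional FSH cows lay on both sides of the long FSH cows, and the mean log2 ratio was 0.04 ± 0.34 (limma, adjusted p = 0.950). Without pair 1 the sign turned, to -0.12, and likewise without array 1, to -0.08. The remaining HSD11B1 probes were dim: EMBV3_15279 was above the limit in 2 long FSH readings and 1 conventional FSH reading, with a ratio of 0.49, and EMBV3_41888 in none, with a ratio of 0.46. Which transcripts each probe reads was not analysed here.

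HSD11B2, the enzyme that inactivates cortisol, was near the detection limit. Its single probe exceeded the negative control limit in 2 of 6 long FSH readings and in 0 of 6 conventional FSH readings. The log2 intensity was 7.01, 7.05 and 6.82 in the long FSH cows and 6.56, 6.42 and 6.75 in the conventional FSH cows. These values did not overlap, but neither did those of HSD11B1 EMBV3_41888, which was above the limit in 0 of 6 readings of either group. Every long FSH cow was also the higher in 7.87% of all tested probes. The long FSH mean of HSD11B2 did not exceed the lowest normalized signal of probes above the limit in the conventional FSH readings. No fold is therefore given. A difference in HSD11B2 was not detectable at this signal.

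Of the receptors, NR3C1 was well measured, above the limit in all 6 readings of each group, and NR3C2 was not. The log2 intensity of NR3C1 was 9.98, 9.19 and 10.26 in the long FSH cows and 9.19, 9.58 and 9.35 in the conventional FSH cows. Cows 1 and 3 of the long FSH group stood above all conventional FSH cows and cow 2 at the level of the lowest. The log2 ratio was 0.80, -0.39 and 0.91 in pairs 1 to 3, with a mean of 0.44 ± 0.72 that missed both limits (limma, adjusted p = 0.631). In pair 1 the swapped arrays differed, at 1.62 and -0.03, a gap wider than the mean ratio itself. The ratio was 0.26, 0.85 and 0.20 without pairs 1 to 3, 0.16 without array 1 and 0.71 without array 4, and reached the P limit without pair 2 alone and the fold limit in none of these. The probe of NR3C2 was above the limit in 0 of 6 readings of either group, and was not tested.

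Among the response genes, SGK1 had the most uniform difference. SGK1 is a serine/threonine kinase, known to act on ion channels and on forkhead factors downstream of steroid and growth factor signals. Its log2 intensity was 9.40, 9.23 and 10.12 in the long FSH cows, and 6.76, 7.29 and 7.64 in the conventional FSH cows. Every long FSH cow stood above every conventional FSH cow, which 7.87% of all tested probes also did. Raw intensities were 550 to 1179 in the long FSH readings (median 791) and 75 to 274 in the conventional FSH readings (median 177). The conventional FSH signal was above the limit in 4 of 6 readings. The others, on arrays 4 and 5, were 75 and 76, so the size of the SGK1 ratio rests in part on a dim signal.

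The log2 ratio of SGK1 was 2.63, 1.94 and 2.48 in pairs 1 to 3, and 1.69 to 3.15 over the 6 arrays. The mean was 2.35 ± 0.37 (SD, n = 3), or 5.10-fold higher in the long FSH group. By P it ranked 9 among 23480 probes and 6 among 9933 genes. Its adjusted p of 0.127 was the smallest of the limma fit, shared by 30 probes. In a limma fit to the 6 arrays with the cow pair as replicate block, the adjusted p of SGK1 was 0.000853. That fit counts the swapped arrays, which hold the same extracts, as separate samples. SGK1 stayed past both limits without each pair and each array in turn, at 2.18 to 2.56.

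**Figure D2:**
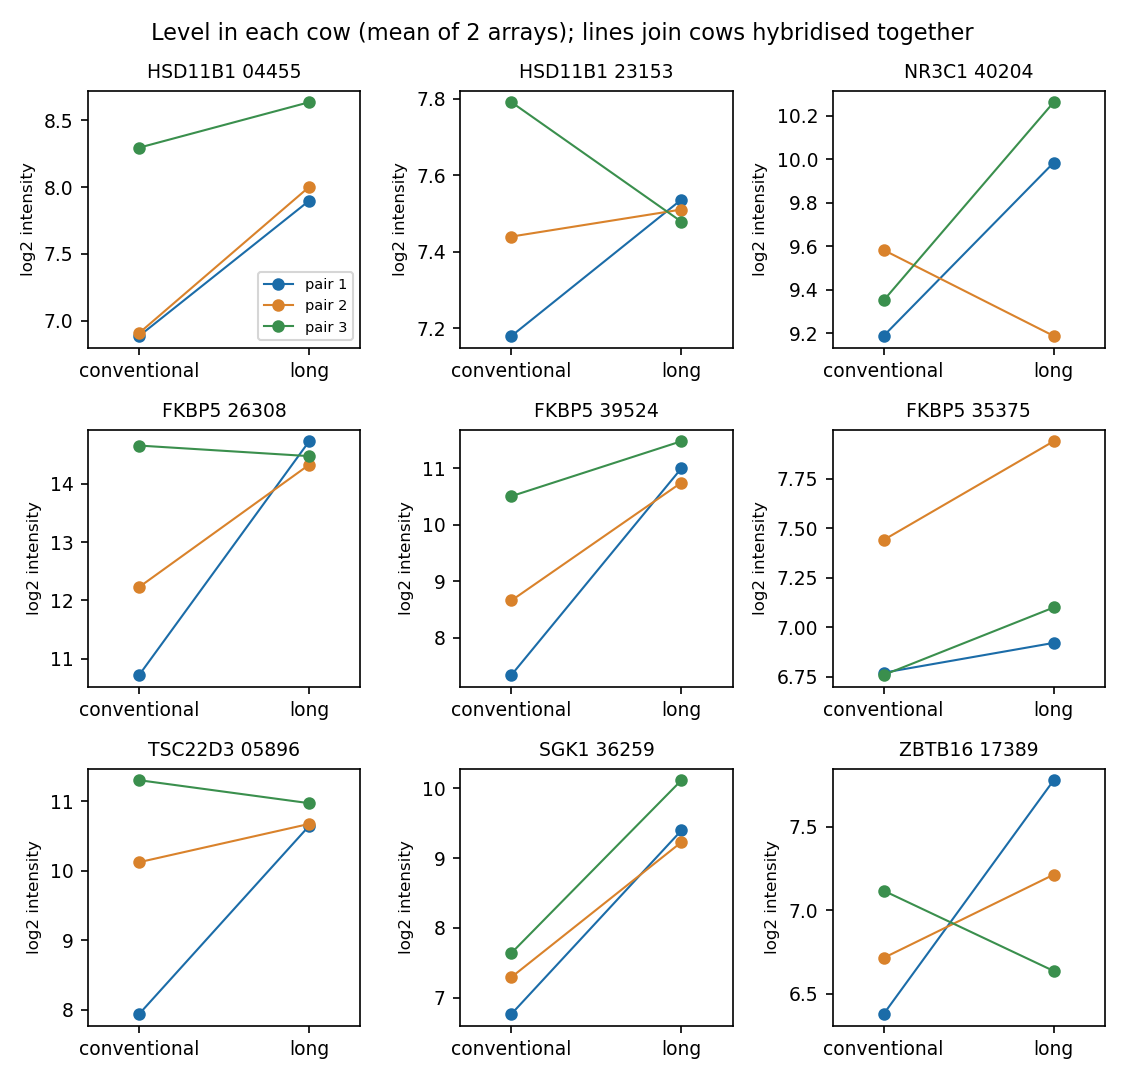
Log2 intensity of each tested member probe (y axis, own scale in each panel) in the conventional FSH cow and the long FSH cow of each pair, as the mean of 2 arrays with swapped dyes; a line joins cows hybridised together. The 3 lines of SGK1 run in parallel, whereas for FKBP5 EMBV3_26308, FKBP5 EMBV3_39524 and TSC22D3 the long FSH cows lie close together and the conventional FSH cows are spread.

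FKBP5 encodes a cochaperone that lowers the affinity of the glucocorticoid receptor for its ligand, and its induction by the receptor forms a feedback loop. Its brightest probe (EMBV3_26308) had a log2 intensity of 14.73, 14.33 and 14.47 in the long FSH cows. In the conventional FSH cows the values were 10.72, 12.23 and 14.65. The long FSH cows thus spanned 0.40 and the conventional FSH cows 3.93, and cow 3 of the conventional FSH group lay among the long FSH cows. Raw intensities showed the same spread, with 18205 to 28132 in the long FSH readings and 1848 to 26084 in the conventional FSH readings.

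The log2 ratio at this FKBP5 probe was 4.01, 2.10 and -0.18 in pairs 1 to 3, and both arrays of each pair gave nearly the same value. The mean was 1.97 ± 2.10, or 3.93-fold (limma, adjusted p = 0.510). It passed both limits, but the call was lost without pair 1 (0.96), without pair 2 (1.91) and without array 3 (1.92). Without pair 3 the ratio was 3.05.

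A dimmer FKBP5 probe (EMBV3_39524) separated the groups. Its log2 intensity was 11.00, 10.75 and 11.48 in the long FSH cows and 7.34, 8.66 and 10.50 in the conventional FSH cows. The ratio was 3.66, 2.09 and 0.97 in pairs 1 to 3, with a mean of 2.24 ± 1.35, or 4.72-fold (limma, adjusted p = 0.307). It was above 0 on 6 of 6 arrays, and pair 3 again gave the smallest ratio. In the limma fit to 6 arrays with the pair as a block its adjusted p was 0.0113. As for SGK1, that fit counts swapped arrays of the same extracts as separate samples. The last FKBP5 probe (EMBV3_35375) was above the limit in 3 long FSH readings and in 1 conventional FSH reading. Its ratio was 0.33 ± 0.17 (limma, adjusted p = 0.596).

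TSC22D3, also called GILZ, is a leucine zipper protein known to carry part of the anti-inflammatory action of glucocorticoids. Its log2 intensity was 10.64, 10.67 and 10.97 in the long FSH cows and 7.94, 10.12 and 11.30 in the conventional FSH cows. Cow 1 of the conventional FSH group was far below all others, and cow 3 of that group was the highest of the 6 cows. The log2 ratio was therefore 2.71 in pair 1, 0.55 in pair 2 and -0.33 in pair 3. The mean of 0.98 ± 1.56 missed both limits (limma, adjusted p = 0.592). Without pair 3 the ratio was 1.63 and passed them, and without pair 1 it was 0.11.

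ZBTB16 and PER1 gave little signal. ZBTB16, a zinc finger repressor known as a target of the glucocorticoid and progesterone receptors in other cells, was above the limit in 4 long FSH readings and 1 conventional FSH reading. Its log2 intensity was 7.78, 7.21 and 6.64 in the long FSH cows and 6.38, 6.71 and 7.12 in the conventional FSH cows, and the groups overlapped. The ratio was 1.40, 0.50 and -0.48 in pairs 1 to 3, on average 0.47 ± 0.94 (limma, adjusted p = 0.651). It was 0.0089 without pair 1, 0.27 without array 6 and 0.95 without pair 3, where it reached the P limit and not the fold limit. PER1, a clock gene with an immediate response to glucocorticoids, was above the limit in 2 long FSH and 0 conventional FSH readings and was not tested.

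The conventional FSH cows took the same order in most member probes, an order picked out after the values were seen. In 7 of the 9 tested probes cow 1 was the lowest and cow 3 the highest of the conventional FSH group, against 16.4% of all tested probes. HSD11B1 and FKBP5 each have more than 1 probe among the 7, and all were read in the same cows, so these probes are not independent. The mean log2 intensity over the 6 tested members was 7.98, 8.81 and 9.73 in conventional FSH cows 1 to 3, and 10.07, 9.77 and 10.18 in the long FSH cows. The median ratio of these members was accordingly 2.02 in pair 1, 0.82 in pair 2 and 0.08 in pair 3, where all genes had medians of 0.02, 0.04 and 0.00. As 2 of the 6 members passed the filter through long FSH readings alone, these medians are a description only. A wider range over conventional FSH cows than over long FSH cows was not particular to the members, with 5 of 9 probes against 57.2% of all tested probes.

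**Figure D3:**
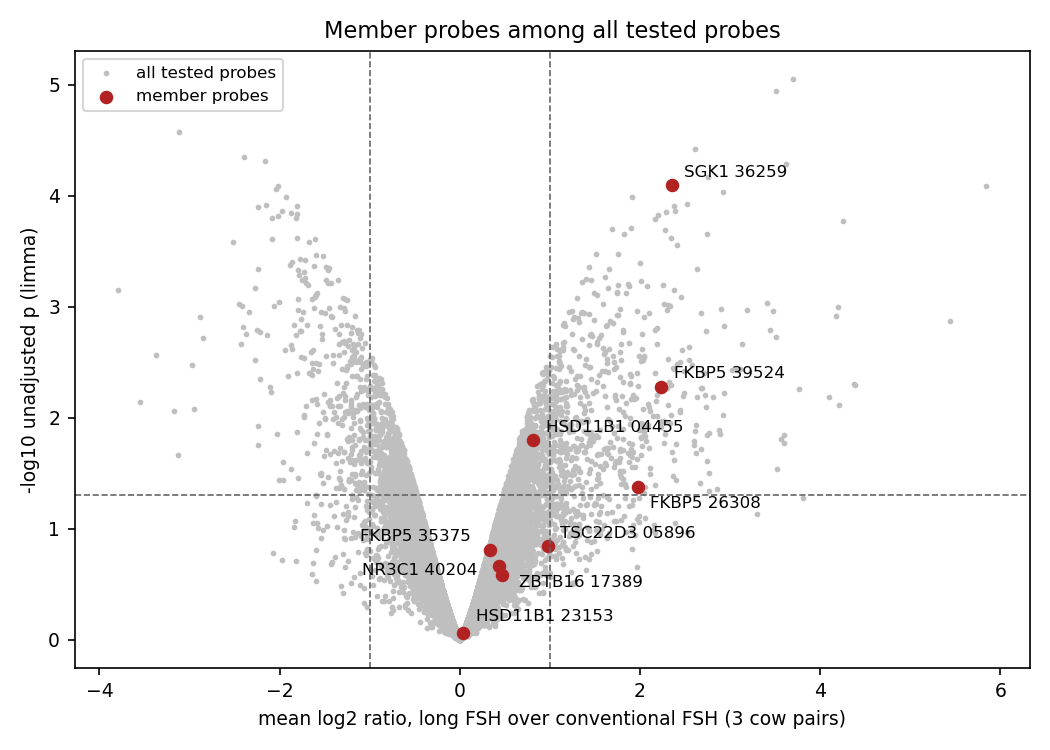
Mean log2 ratio of 3 cow pairs (x axis) against -log10 of limma's unadjusted P (y axis) for all 23480 tested probes in grey and the 9 tested member probes in red, with dashed lines at P of 0.05 and at 2-fold. SGK1 and both FKBP5 probes at 1.97 and 2.24 lie past both lines, and HSD11B1 EMBV3_04455 is past the P line only.

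A list of 34 other genes known to be induced through the glucocorticoid receptor was read next, 26 of them tested. Of these, 5 were higher and 1 was lower in the long FSH group, against 3.39% and 2.02% of all genes, and 20 did not pass. The median ratio was 0.29 (0.03 over all genes), with 0.41, 0.11 and 0.32 in pairs 1 to 3. Of the 26, 2 passed the filter through long FSH readings alone and 1 through conventional FSH readings alone. This list, like the others, was chosen with earlier results of these data known, so its counts and median are a description only. ANXA1, an annexin known to restrain leukocyte recruitment, had a log2 intensity of 11.55, 12.26 and 13.76 in the long FSH cows and 8.90, 9.996 and 10.85 in the conventional FSH cows. The groups did not overlap, as for 8.64% of all genes, and the ratio was 2.64, 2.27 and 2.91 in pairs 1 to 3, on average 2.60 ± 0.32 (limma, adjusted p = 0.127). Like SGK1, ANXA1 stayed past both limits without each pair and each array in turn.

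The remaining genes of this list that passed were less uniform. DUSP1, a phosphatase that switches off MAP kinases, was higher by 1.67 ± 1.15, at 1.81, 0.45 and 2.75 in pairs 1 to 3, and missed the P limit without pair 1 (1.60). RGS2, which damps G protein signalling, was higher by 3.76 ± 2.41 and passed without each pair, at 2.39 without pair 1. Its other probe gave 2.57. CRISPLD2, a secreted protein, was higher by 3.51 ± 3.44 with -0.34 in pair 3, and did not pass without pair 1 (2.97), pair 2 (2.14) or array 3 (3.27). Its other probes gave 2.77 and 0.04. RGS2 and CRISPLD2 were chosen by the study on the same arrays, so their counts are not independent. NFKBIA, the inhibitor of NF-kappa-B, was named after its values were seen. It was higher by 1.06 ± 0.65, and did not pass without pair 1 (0.68) or array 4 (0.90). DDIT4, an inhibitor of mTOR, was the lower gene, at -1.34 ± 1.37, and did not pass without pair 2 (-0.58), pair 3 (-1.51) or array 4 (-1.15).

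**Figure D4:**
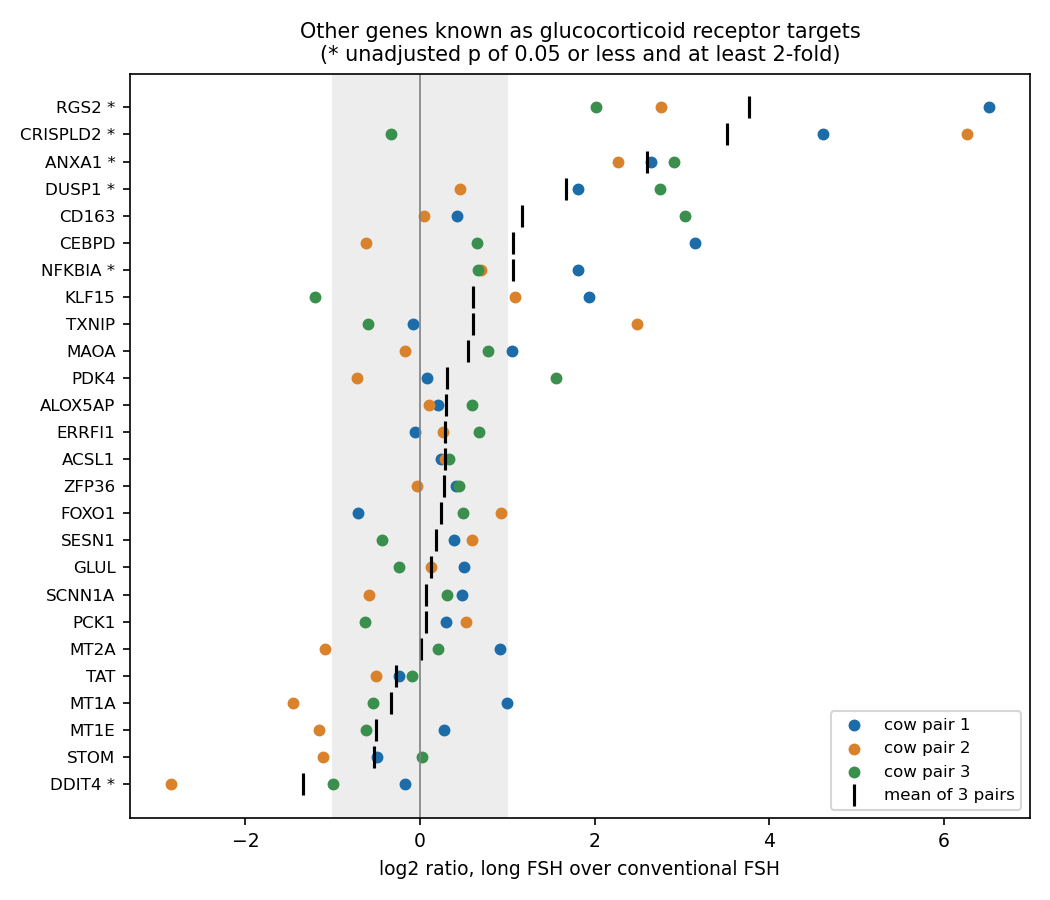
Log2 ratio (long FSH over conventional FSH, x axis) of the 26 tested genes known as glucocorticoid receptor targets other than the members, by cow pair, with a black tick for the mean; grey marks less than 2-fold and an asterisk a gene past both limits. The 3 pairs of ANXA1 lie between 2.27 and 2.91, while those of CRISPLD2 run from -0.34 to 6.27.

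Chaperones and cofactors of the receptor gave 1 call. Of 18 tested genes on this list of 21, 1 was higher and 0 were lower, against 3.39% and 2.02% of all genes, and the median ratio was -0.04. The gene that passed was NCOA1, a coactivator of steroid receptors, at 1.51 ± 1.55. Its other probes gave -0.08 and 0.31, and the call was lost without pair 1 (1.71), pair 2 (0.66), array 4 (1.36) or array 6 (1.26).

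Genes that make, carry or clear glucocorticoids gave no call. Of 11 genes 6 were tested, 0 passed in either direction, and the median was -0.25. The smallest P values belonged to SRD5A1, a 5-alpha-reductase, with a ratio of 0.70 ± 0.80 (limma, adjusted p = 0.554), and to SLC37A4, the transporter that brings glucose-6-phosphate to H6PD, with -0.48 ± 0.39 (limma, adjusted p = 0.554). CYP21A2, which makes the precursor of cortisol, was not above the limit often enough to be tested. Among clock genes other than PER1, 7 of 13 were tested and 0 passed. CRY1 had a ratio of -0.50 ± 0.27 (limma, adjusted p = 0.545) and NR1D2 one of -0.42 ± 0.13 (limma, adjusted p = 0.554).

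Of 13 inflammatory genes known to be repressed through the receptor, 7 were tested, 1 was higher and 0 were lower, against 3.39% and 2.02% of all genes. The median ratio was 0.35, but 4 of the 7 passed the filter through long FSH readings alone. The higher gene was PTGS2, the prostaglandin synthase that LH induces in granulosa cells and that the study itself picked. Its ratio was 5.49, 6.30 and 0.85 in pairs 1 to 3, on average 4.21 ± 2.94, and its other probes gave 2.38 and 0.76. Without pair 1 it missed the P limit, at 3.57. Conventional FSH cow 3 again had the highest log2 intensity of its group, 11.25 against 6.45 and 6.73 in cows 1 and 2. The probe was above the limit in 6 of 6 long FSH readings and in 2 of 6 conventional FSH readings, so the size of its ratio in pairs 1 and 2 rests on a dim signal.

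Paralogs of the members were compared as a list of 20, of which 15 were tested, 2 were higher and 0 were lower, against 3.39% and 2.02% of all genes, with a median of -0.02. Both higher genes were relatives of TSC22D3. TSC22D1 had a ratio of 2.06 ± 1.61 with 1.27 at its other probe, and did not pass without pair 1 (1.92). TSC22D4 had a ratio of 1.12 ± 0.60 and did not pass without pair 2 (0.83) or array 1 (0.89). Among the tested FKBP paralogs none passed.

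Markers of other cells moved with the groups in part. In such bulk RNA, fewer cells of a type and less RNA per cell cannot be told apart. Of 14 leukocyte markers 11 were tested, and CD53 (2.60 ± 2.14) and TYROBP (1.89 ± 1.36) were higher in the long FSH group, against 3.39% of all genes. The other CD53 probe gave 0.33, and TYROBP was above the limit in 0 of 6 conventional FSH readings. PTPRC, above the limit in all 6 readings of each group, did not pass, at 0.10 ± 0.62. Of the 11, 7 passed the filter through long FSH readings alone, so the list's median is a description only. The median ratio of the list was 0.32, 0.27 and 2.34 in pairs 1 to 3, and its summed intensity was 3921 to 17620 in the long FSH cows and 2667 to 6444 in the conventional FSH cows, with the highest value in long FSH cow 3. CSF1R, CD2 and CYBB were not tested for lack of signal. The part of leukocytes in the ratios of the members, ANXA1 and the other targets was not tested.

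Of the granulosa markers, 4 of 6 were tested, with CYP19A1, the aromatase, lower by 1.81 on the log2 scale (SD 1.35) and 0 higher, against 2.02% and 3.39% of all genes. The median ratio was -0.67, with 0 of the 4 above 0. INHA missed the fold limit at -0.65 ± 0.10, with -0.61, -0.58 and -0.77 in pairs 1 to 3. The mean log2 intensity of the 4 markers was 11.21, 10.54 and 9.60 in conventional FSH cows 1 to 3, the reverse of the order of the members. In the long FSH cows it was 10.58, 9.19 and 8.97. The markers did not share the order of the conventional FSH cows. CYP19A1 (12.38, 10.68 and 8.34) and FSHR (9.52, 8.25 and 7.85) fell from cow 1 to cow 3. AMH (7.77, 8.03 and 7.08) and INHA (15.155, 15.202 and 15.152) were highest in cow 2. FOXL2 and HSD17B1 were not above the limit often enough to be tested. Of 6 theca markers 5 were tested, with DCN lower (-1.20 ± 1.27) and CYP17A1 not tested, at a summed intensity of 3351 to 8151 in the long FSH cows and 2223 to 8398 in the conventional FSH cows. Of 8 endothelial markers 5 were tested and 0 passed, with PECAM1 and VWF not above the limit often enough, and summed intensities of 650.4 to 748.5 and of 716.7 to 783.6. Among 5 red blood cell markers AHSP alone was tested, with a ratio of 0.15. The part of these markers in the members' ratios was not tested.

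Over the 6 cows, the level of HSD11B1 EMBV3_04455 ran most closely with those of MAST3 (Pearson r = 0.995), CTH (r = 0.9895) and ELMO2 (r = 0.989) among 9932 genes. The dim HSD11B2 probe ran with PRDX1 (r = 0.995), KDM2A (r = 0.993) and FUNDC2 (r = 0.991). All were picked as the highest r of the genes compared, over 6 points that share arrays and pairs, so they are a description only. The HSD11B2 probe was above the limit in 2 of 6 long FSH readings and in 0 of 6 conventional FSH readings.

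**Figure D5:**
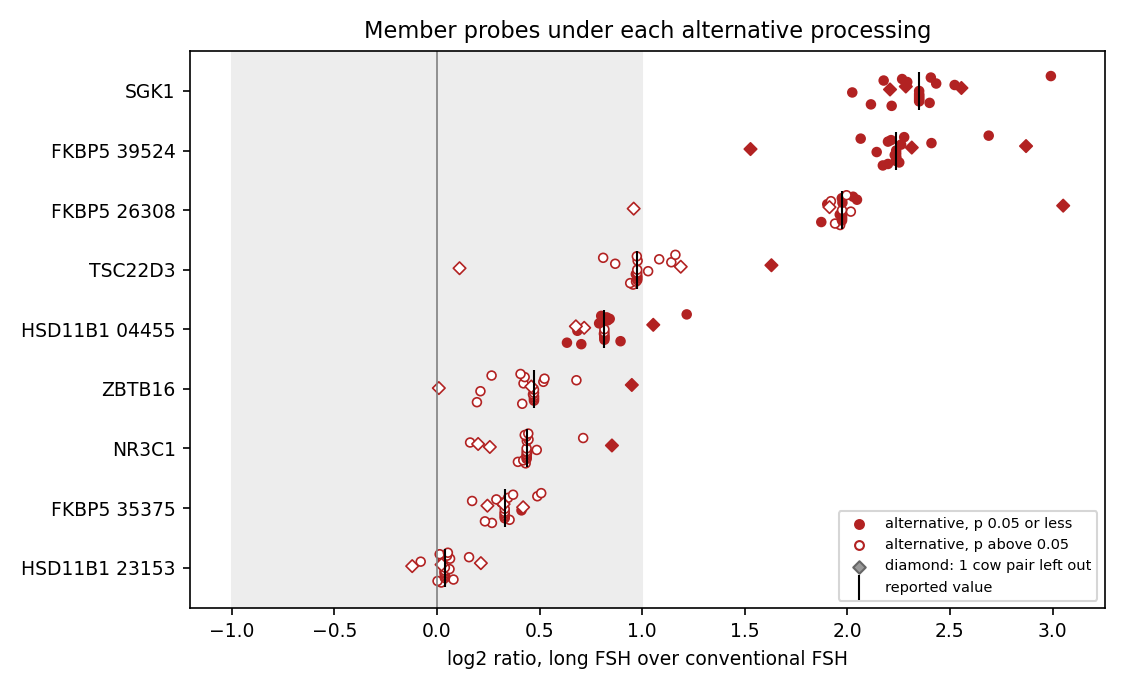
Log2 ratio of each tested member probe (x axis) under each alternative processing, filled where limma's unadjusted P was 0.05 or less and open otherwise, with diamonds for fits without 1 cow pair, a black tick for the reported value and grey for less than 2-fold. SGK1 stays between 2.02 and 2.99 and FKBP5 EMBV3_39524 between 1.53 and 2.87, all filled, while FKBP5 EMBV3_26308 and TSC22D3 depend on which cow pair is left out.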

How the data were processed

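Per the labels and methods, the authors' scanner gave a median foreground and a median local background intensity for every spot and wavelength, used as deposited. The authors also deposited log2 ratios of the same arrays, described as background-subtracted, loess- and quantile-normalized. Each of those columns tracked the swapped array of its pair and ran against the array it was named for. Their sign was set with the dye assignment opposite to the one behind the main ratios. A shared sign is therefore no separate evidence on direction, and these columns served as an alternative only. Here the background was subtracted, non-positive values were replaced by 0.5, loess was applied to the log2 ratios within arrays and Aquantile between arrays (limma 3.58.1, R 4.3.3). Limma was fitted to the 3 pair means and p adjusted over 23480 probes by Benjamini-Hochberg. The fit was also run on simulated ratios of known change, drawn independently for each array. That setting lacks the shared extracts and dim signals of these arrays, so it does not vouch for the fit here. Cows were paired by the numbers in the sample titles. Deviations from group means correlated within pairs (r = 0.155 to 0.26). The cows of a pair share arrays, so this cannot tell a likeness of the animals from one of the arrays. Gene symbols are those of the array's annotation, after 1524 probes with older symbols were renamed by RefSeq synonyms. Median background was 19 to 49 and median foreground 127 to 220.

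Members and lists were chosen with earlier results of these data known. Named were all members and, of each list, genes past both limits (at most 4 by size in each direction) or the 2 with the smallest P. NFKBIA fell outside this rule. Alternatives were other backgrounds, floors, normalizations, dim probe filters, replicate structures, limma options, fold limits, probe averaging, the deposited ratios and leaving out each pair or array. Promoter and protein sequences were not analysed here, and neither were coordinates.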

Additional observations from a re-analysis of the deposited data

How the results depend on the processing

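SGK1, FKBP5 EMBV3_39524 and ANXA1 stayed past both limits in all 21 alternatives run for them. Among these, the deposited ratios were read with the opposite dye assignment, so their sign is not a separate check of direction. FKBP5 EMBV3_26308 passed in 13 of 21. It missed the P limit with normexp (1.97), dim values set to the negative control limit (1.94), the deposited ratios (2.02), trend and robust options (1.97) and the mean of the negative controls as background (2.00, chosen after seeing the data), and ranged from 0.96 to 3.05 without a pair or array. HSD11B1 EMBV3_04455 passed with the negative control background (1.22), and ranged from 0.68 to 1.05 without a pair or array. TSC22D3 ranged from 0.11 to 1.63 and HSD11B1 EMBV3_23153, which reversed without pair 1 or array 1, from -0.12 to 0.21. The cause was not tested.

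Probes higher and lower by both limits numbered 1178 and 805 at 1.5-fold and 1295 and 925 with no fold limit. There were 319 higher with dim values at the limit, 313 with the deposited ratios and 136 with trend and robust options, and 569 lower with the negative control background. Probes past the adjusted threshold and 2-fold numbered 3 without a filter on dim probes. Counting the 6 arrays as replicates gave 666 with no block, 590 with the cow pair as replicate block and 647 with the slide as block, among them SGK1 and FKBP5 EMBV3_39524 in each. With cows compared 3 against 3 and no replicate block there were 0, and no other call of a member changed with the block. Of the gene lists, NCOA1 was not called (0 genes higher) with averaged probes, dim values at the limit, median centring, cows 3 against 3, the deposited ratios, trend and robust options or the negative control background, under which 1 such gene was lower. Other receptor targets had 1 gene higher with the deposited ratios and with trend and robust options, and 0 lower there, with dim values at the limit and with the negative control background. Repressed genes had 0 higher with trend and robust options and 1 lower with the negative control background. Paralogs had 1 higher with dim values at the limit, 0 with the deposited ratios or trend and robust options, and 1 lower with arrays as replicates, with or without the cow pair as block.

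Without a pair or array, probes higher ranged from 504 to 1068 and probes lower from 301 to 742, both highest without pair 3. Probes past the adjusted threshold ranged from 0 to 90, with 90 without pair 3, 20 without pair 2 and 5 without array 6. Other receptor targets ranged from 2 to 6 higher and from 0 to 1 lower, paralogs from 1 to 2 higher and from 0 to 1 lower, and receptor cofactors, repressed genes (also lower) and steroid supply (higher) from 0 to 1. Signal over background limited HSD11B2, NR3C2 and PER1, which have no test. H6PD was not measured, as no probe names it. Causes were not tested.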
